A study of Mus musculus with 16 samples.

Results

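Primary hepatocytes, the main cell type of the liver, were isolated from mice of a cre-loxP cross in which Smpd3 is removed in hepatocytes, and were exposed in culture to palmitic acid, a saturated fatty acid used here to model steatohepatitis. The comparison described is between HKO cells, whose labelled genotype is Alb-cre+ (Cre recombinase driven by the albumin promoter), and FLOX cells, labelled Alb-cre-, after both had received 0.4 mM palmitic acid for 24 h. It rests on 4 HKO and 4 FLOX samples, which are 8 of the 16 samples of the study; the other 8 hold both genotypes with vehicle. All genes with a transcript abundance of at least 1 TPM (a length-adjusted share of all transcripts in a sample, scaled to a fixed total) in at least 4 of the 16 samples were described, which left 11858 of 55416 genes. The labels give no age, sex or strain, and nothing in them tells if a group's 4 samples are separate mice or separate cultures. The p-values come from 1 fit of all 16 samples, those with vehicle included. They therefore measure only the spread among samples within the 4 groups, possibly a technical one. Genotype, animal of origin and cell isolation cannot be told apart.

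Smpd3 encodes a neutral sphingomyelinase of the plasma membrane and Golgi, which splits sphingomyelin into ceramide and phosphocholine. In hepatocytes, an excess of saturated fatty acid is known to strain the endoplasmic reticulum, where the unfolded protein response raises chaperones such as BiP, and to set off the integrated stress response, in which ATF4 and CHOP drive stress genes. Hepatocytes also secrete most plasma proteins, metabolise drugs through cytochrome P450 enzymes, and store fatty acids in lipid droplets or burn them under the control of the nuclear receptor PPARα. The comparison sets these programmes in cells with Smpd3 removed beside those in FLOX cells while the fatty acid is present. Cre recombinase is labelled in HKO only, so its presence cannot be told apart from the removal of Smpd3.

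The 8 samples held 11243 to 11498 genes at 1 TPM or more, and since TPM does not carry read depth, that depth is unknown and precision rests on the spread of 4 samples a group. Computed over genes, as a description, Pearson's r was 0.98 to 0.985 between samples of 1 genotype and 0.976 to 0.982 between genotypes. The first principal component of the 8 samples (22.3% of the variance) placed FLOX at -19.8 to -7.31 and HKO at 12.2 to 14.8. FLOX replicate 1 stood apart on the next (18.7%), at 23.8 against -16.7 to -3.49 in the other 3 FLOX samples, and its long transcripts were low relative to its short ones: the median deviation of the longest genes minus that of the shortest (outer quartiles by length) was -0.142 against 0.0224 to 0.0693 in those 3 and 0.00889 to 0.0993 in HKO. The 12 hepatocyte markers summed to 45300 to 46700 TPM in FLOX and 47400 to 48900 TPM in HKO, mostly Alb, Apoa1 and Trf. The rest of the 12 were less abundant, with Cps1 (15.86 to 29.24 TPM over the 8 samples) and Tdo2 (5.87 to 11.82 TPM) the lowest. Lymphocyte and neutrophil markers summed to 0.52 TPM at most, and 10 of 12 stellate cell and 7 of 12 endothelial markers were below 1 TPM in all 8 samples. Some markers of other cell types were present: Ecm1 of the stellate list at 29.13 to 40.28 TPM and Alas2 of the erythroid list at 19.31 to 21.66 TPM. Of the endothelial list, Stab1 was at 3.63 to 6.72 TPM and Oit3 at 1.32 to 3.59 TPM. The 12 endothelial markers summed to 9.97 to 12.7 TPM in FLOX and 13.2 to 15.1 TPM in HKO, without overlap. None of the 5 endothelial markers tested was called, and the part of endothelial cells was not tested beyond these levels. Of the cholangiocyte list, Sox9 was at 30.38 to 39.2 TPM and Cldn4 at 247.62 to 291.97 TPM.

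Smpd3 (ENSMUSG00000031906) checked the labels first. Its level was 42.5, 47.1, 46.7 and 47.8 TPM in FLOX replicates 1 to 4 and 7.88, 9.15, 7.82 and 6.44 TPM in HKO replicates 1 to 4. Every HKO sample lay far below every FLOX sample, and transcripts assigned to the gene remained in all 4 HKO samples. The mean of Smpd3 averaged 46.0 ± 2.36 TPM in FLOX and 7.82 ± 1.11 TPM in HKO (means ± SD over 4 samples, the form used for TPM means throughout), a ratio of 0.17. Its log2 difference, HKO minus FLOX on the log2(TPM + 1) scale with its SE from limma and the Benjamini-Hochberg adjusted p, was as follows (-2.42 ± 0.11, adjusted p = 1.09e-09); differences below are on this scale, which understates folds of low genes. The labels do not say which exons were removed, and TPM per gene cannot show which part of the transcript remained.

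Few other genes of sphingomyelin and ceramide turnover passed the threshold. Of the 9 genes tested of sphingomyelin turnover, Smpd3 alone passed the threshold; the sphingomyelin synthases Sgms1 and Sgms2 stood at log2 differences of -0.17 and -0.087 (limma adjusted p = 0.396 and 0.778). Of 22 genes of ceramide synthesis and breakdown 1 was higher and 1 lower, with a median of -0.0050. The higher count was 0 without FLOX replicate 4, HKO replicate 1 or HKO replicate 2; the lower count was 2 without FLOX replicate 1 or HKO replicate 2 and 0 without FLOX replicate 2 or HKO replicate 4. Degs1, the desaturase that completes ceramide synthesis, fell from 110.3 ± 2.28 TPM in FLOX to 97.8 ± 4.45 TPM in HKO (limma adjusted p = 0.0173). Degs1 lost its call without FLOX replicate 2 or HKO replicate 4 (adjusted p up to 0.0522).

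**Figure D1:**
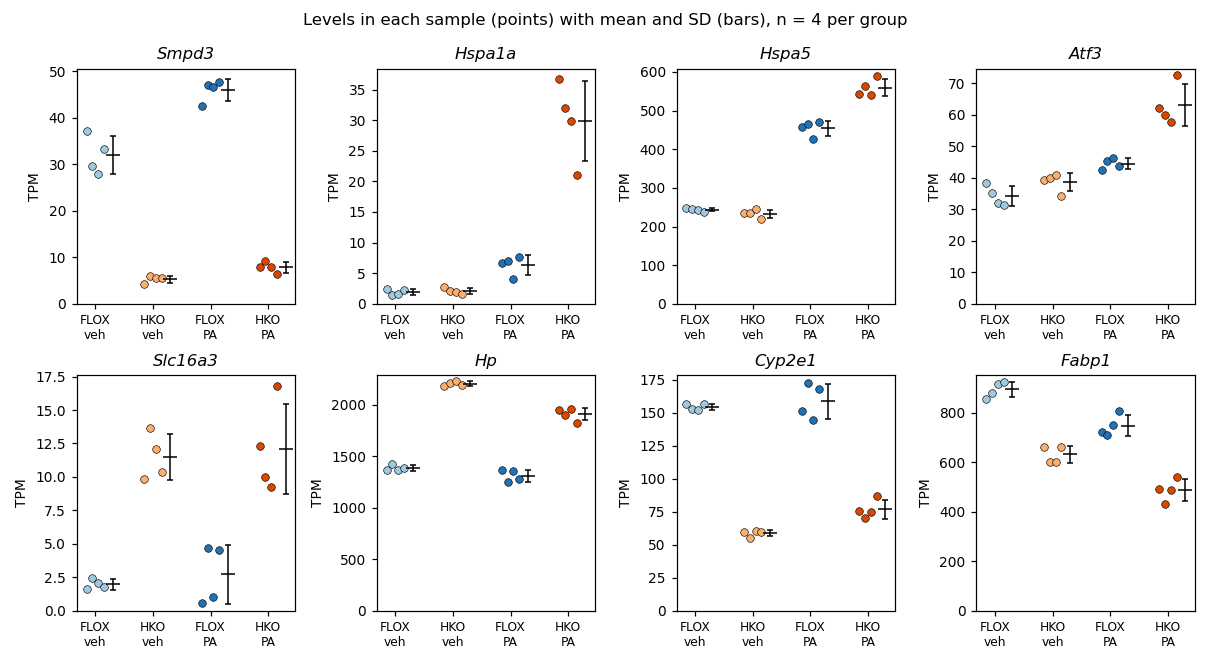
Levels in TPM of 8 genes in all 16 samples (points, 1 per sample) with mean and SD (n = 4 per group), for FLOX and HKO with vehicle (veh) or palmitic acid (PA). Smpd3 was low in every HKO sample, while Hspa1a and Hspa5 stood apart in HKO with palmitic acid and Slc16a3, Hp, Cyp2e1 and Fabp1 differed by genotype under both treatments.

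Across all genes tested, 1155 of 11858 (9.74%) differed between the genotypes under palmitic acid at a limma adjusted p below the threshold of 0.05. Of these 503 (4.24% of genes tested) were higher and 652 (5.5%) lower in HKO, and the 4 and 4 samples did not overlap for 1038 of them, against 1653 (13.9%) of all genes tested. Most differences were small: 895 were under 0.5 in size and 43 were at least 1, of which 22 were higher and 21 lower. Higher genes made up 43.5% of those called, or 55% under median-ratio scaling, and the median log2 difference of all genes was -0.0077. A fit of the 2 groups alone, which does not draw on the spread of the vehicle samples, called 669 genes, 319 higher and 350 lower. In the lists that follow, these shares of 4.24% and 5.5% stand beside the counts of called members as a description only. The lists and their members were chosen with earlier results of these data known, so a higher share is no test of a list. Counts of 0 to 2 mean few or none, since many of them moved when 1 sample was left out.

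Several of the largest differences were in transcripts of low abundance. Moxd1, a copper monooxygenase-like protein, was listed at 0.37, 0.13, 0.23 and 1.07 TPM in FLOX and at 5.99, 6.49, 5.59 and 5.04 TPM in HKO (2.26 ± 0.15, adjusted p = 5.1e-08). Hsd3b1, a steroid dehydrogenase, was listed at 6.65, 6.17, 5.34 and 6.37 TPM in FLOX and at 0.78, 0.7, 1.04 and 0.42 TPM in HKO (-2.05 ± 0.12, adjusted p = 2.02e-08). The samples of both genes were far apart by genotype, as were those of Tff1, a trefoil peptide (7.06 ± 1.99 TPM in FLOX and 1.65 ± 0.249 TPM in HKO), Pltp, the phospholipid transfer protein (3.61 ± 0.307 and 0.855 ± 0.153 TPM), Obp2a, a lipocalin (3.08 ± 1.18 and 8.37 ± 0.82 TPM), and Prelid2 (8.11 ± 1.82 and 20.9 ± 2.88 TPM). The transcript AI662270 was listed at 1.26 to 3.07 TPM in FLOX and at 0 in 3 of 4 HKO samples. Moxd1, Hsd3b1, Tff1, Pltp, Obp2a, Prelid2 and AI662270 differed in the same direction with vehicle. Dppa3, a gene known from germ cells and early embryos, averaged 3.68 ± 0.603 TPM in FLOX and 10.3 ± 1.46 TPM in HKO (1.27 ± 0.14, adjusted p = 1.01e-05), and its vehicle difference of 0.41 did not pass the threshold. The difference between these 2 differences, 0.86, did not pass either.

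**Figure D2:**
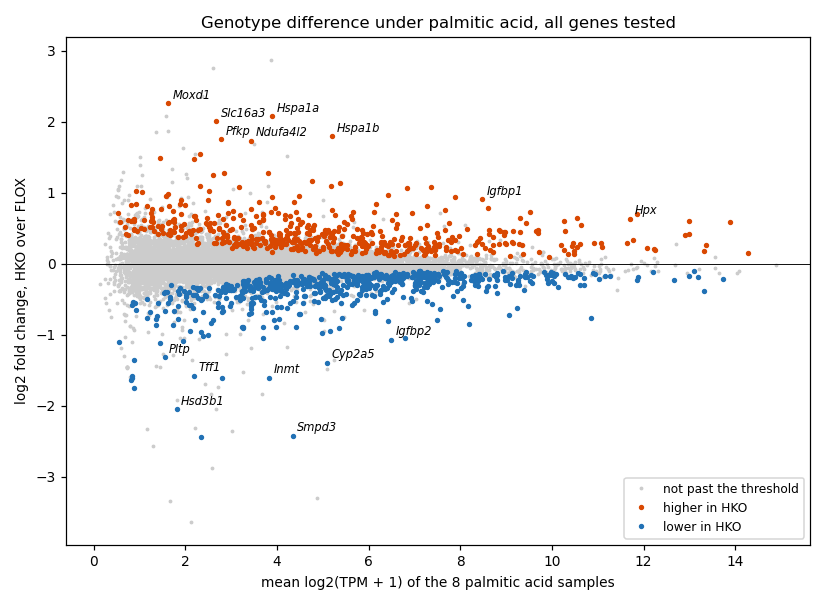
Log2 difference (HKO minus FLOX under palmitic acid) of each gene tested against its mean log2(TPM + 1) in the 8 samples; orange and blue points are the 503 higher and 652 lower genes. Most called genes lie within 0.5 of 0, and Smpd3 is the lowest of the called genes.

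The inducible HSP70 pair showed the largest differences among the chaperone and stress lists; HSP70 holds misfolded proteins in the cytosol for refolding. Hspa1a (ENSMUSG00000091971), an inducible HSP70, was 6.7, 7, 4.01 and 7.7 TPM in FLOX replicates 1 to 4 and 36.7, 32, 29.9 and 21 TPM in HKO replicates 1 to 4. Hspa1b (ENSMUSG00000090877), its near-identical neighbour, was 22.3, 18.1, 14.1 and 21.4 TPM in FLOX and 77.7, 77.7, 72 and 47.6 TPM in HKO. HKO replicate 4 was the lowest of its group for both genes and still lay above every FLOX sample. The log2 differences were large for Hspa1a (2.07 ± 0.19, adjusted p = 2.32e-06) and Hspa1b (1.80 ± 0.15, adjusted p = 7.33e-07). Because the copies are near-identical, how reads were divided between them is uncertain, and the pair is better read together than apart.

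The promoters of this pair and of Hspa5 and Creld2, of the endoplasmic reticulum list, hold letters of known binding motifs. They are shown because these genes were all higher in HKO, and what raised them was not tested. The 250 bases before the transcription start were taken from RefSeq (GRCm38.p6), 5′ to 3′ on the gene's own strand, and capitals mark the motif: GAANNTTC or TTCNNGAA, part of the heat shock element bound by heat shock factor 1, or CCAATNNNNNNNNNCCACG, the endoplasmic reticulum stress element bound by ATF6 and NF-Y, which may stand on either strand. The regions are chr17:34972157-34972406 (minus strand) for Hspa1a, chr17:34959239-34959488 (minus strand) for Hspa1b, chr2:34771840-34772089 (plus strand) for Hspa5 and chr15:88819396-88819645 (plus strand) for Creld2.
Hspa1a: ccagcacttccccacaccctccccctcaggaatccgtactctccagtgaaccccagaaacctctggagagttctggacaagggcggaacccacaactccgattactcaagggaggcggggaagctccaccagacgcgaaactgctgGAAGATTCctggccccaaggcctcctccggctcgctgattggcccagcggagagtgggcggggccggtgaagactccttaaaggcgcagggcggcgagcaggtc
Hspa1b: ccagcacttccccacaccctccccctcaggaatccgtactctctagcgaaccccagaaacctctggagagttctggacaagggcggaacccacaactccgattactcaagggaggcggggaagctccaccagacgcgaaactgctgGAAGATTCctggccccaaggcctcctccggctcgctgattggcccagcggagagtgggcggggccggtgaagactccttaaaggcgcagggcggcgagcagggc
Hspa5: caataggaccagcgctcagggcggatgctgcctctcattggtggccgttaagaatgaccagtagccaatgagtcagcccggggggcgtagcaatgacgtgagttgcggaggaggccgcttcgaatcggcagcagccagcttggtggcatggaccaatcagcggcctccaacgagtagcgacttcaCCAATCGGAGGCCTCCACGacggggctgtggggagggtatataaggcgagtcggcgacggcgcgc
Creld2: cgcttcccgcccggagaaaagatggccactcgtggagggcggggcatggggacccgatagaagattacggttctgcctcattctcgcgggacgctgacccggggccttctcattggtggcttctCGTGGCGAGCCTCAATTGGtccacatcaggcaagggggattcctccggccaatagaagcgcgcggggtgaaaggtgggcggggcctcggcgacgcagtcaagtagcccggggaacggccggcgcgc
The heat shock motif lies 104 to 97 bases before the start in both Hspa1a and Hspa1b, whose 250 bases differ at 3 positions (98.8% identical), and the stress element lies 65 to 47 bases before the start of Hspa5 and 126 to 108 before that of Creld2, where it is on the opposite strand. The heat shock motif was found in the 250 bases of 3932 of 27025 genes (14.5%) and in 2 of the 4 higher cytosolic chaperones, Hspa1a and Hspa1b. The stress element was found in 35 of 27025 genes (0.13%) and in 5 of the 10 higher endoplasmic reticulum genes that have an entry, among them Hspa5, Hsp90b1, Creld2 and Derl3. These matches describe letters in a window, both strands searched, and do not show that a factor was bound. The same count was not made for the uncalled members of each list, so these shares do not bear on the genotype difference.

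Of 26 tested chaperones and folding enzymes of the endoplasmic reticulum 11 were higher in HKO and 0 lower, and the median of the log2 differences was 0.18. Hspa5 (ENSMUSG00000026864), which encodes BiP, the main chaperone of this compartment, was 457, 465, 427 and 470.3 TPM in FLOX and 544, 563, 541 and 590.1 TPM in HKO (0.30 ± 0.04, adjusted p = 0.000109). Hsp90b1, the HSP90 of the endoplasmic reticulum, rose from 189.8 ± 7.96 to 239 ± 9.67 TPM, and Pdia4, a disulfide isomerase, from 72 ± 2.35 to 88.9 ± 2.87 TPM. The highest FLOX sample lay below the lowest HKO sample for each of these 3 genes. Herpud1, of the degradation machinery for misfolded proteins, rose from 91.7 ± 1.91 to 119 ± 3.76 TPM, Sdf2l1 from 20.2 ± 1.83 to 29.7 ± 1.74 TPM, and Dnajb9, a co-chaperone of BiP, from 27.1 ± 1.76 to 37.8 ± 3.46 TPM. Creld2, a secreted stress marker, rose from 48.4 ± 4.12 to 67.5 ± 4.17 TPM, and Derl3 from 1.94 ± 1.15 to 6.63 ± 0.905 TPM. With vehicle 2 of the 26 were higher and 0 lower.

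Chaperones of the cytosol and mitochondria did not move as 1 block. Of 26 tested members 4 were higher (Hspa1a, Hspa1b, the HSP40 Dnajb1 and the small heat shock protein Hspb8) and 5 were lower. The lower ones were Cct2, Cct3 and Cct5, subunits of the chaperonin that folds actin and tubulin, and Hspd1 and Hspe1, the mitochondrial chaperonin. Cct3 fell from 232 ± 5.04 to 190.4 ± 6.57 TPM and Hspe1 from 374 ± 12.7 to 300.0 ± 13.2 TPM. Cct2, at -0.11 (adjusted p = 0.0424), lost its call without FLOX replicate 1, FLOX replicate 2, FLOX replicate 3, HKO replicate 1, HKO replicate 2 or HKO replicate 4, without any of 5 vehicle samples, and with median-ratio scaling. Hspa8, the constitutive HSP70, averaged 1782 ± 24.6 TPM in FLOX and 1808 ± 56.6 TPM in HKO (adjusted p = 0.760). The vehicle contrast called 0 of the 26 higher and 9 lower.

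Genes of the integrated stress response were higher in HKO for 9 of 21 tested members and lower for 0, with a median of 0.20. Atf4, its central transcription factor, was 221, 230.3, 215 and 215 TPM in FLOX and 254, 252, 246 and 258 TPM in HKO, with no overlap (0.20 ± 0.031, adjusted p = 0.000553). Atf3, a factor downstream of it, was 42.4, 45.2, 46.4 and 43.6 TPM in FLOX and 62.1, 59.8, 57.6 and 72.5 TPM in HKO (0.49 ± 0.077, adjusted p = 0.000537). Both genes were higher in every HKO sample, Atf4 by a small margin. Trib3, a pseudokinase induced by ATF4, rose from 36.2 ± 1.99 to 47.9 ± 4.42 TPM, Ppp1r15a, which restores translation, from 55.6 ± 3.48 to 76.4 ± 9.14 TPM, and Atf5 from 160.1 ± 6.24 to 209.7 ± 28.5 TPM. Ddit3, which encodes CHOP, averaged 26.8 ± 0.625 TPM in FLOX and 38.5 ± 8.33 TPM in HKO (adjusted p = 0.0161), and without HKO replicate 1 its adjusted p was 0.0526. With vehicle 1 of the 21 was higher and 2 lower. The growth arrest gene Gadd45a, listed under p53 and apoptosis, rose from 82 ± 2.84 to 105 ± 16.4 TPM, while Cdkn1a, the p53 target p21, was 191 ± 9.92 and 197 ± 3.82 TPM (adjusted p = 0.479).

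**Figure D3:**
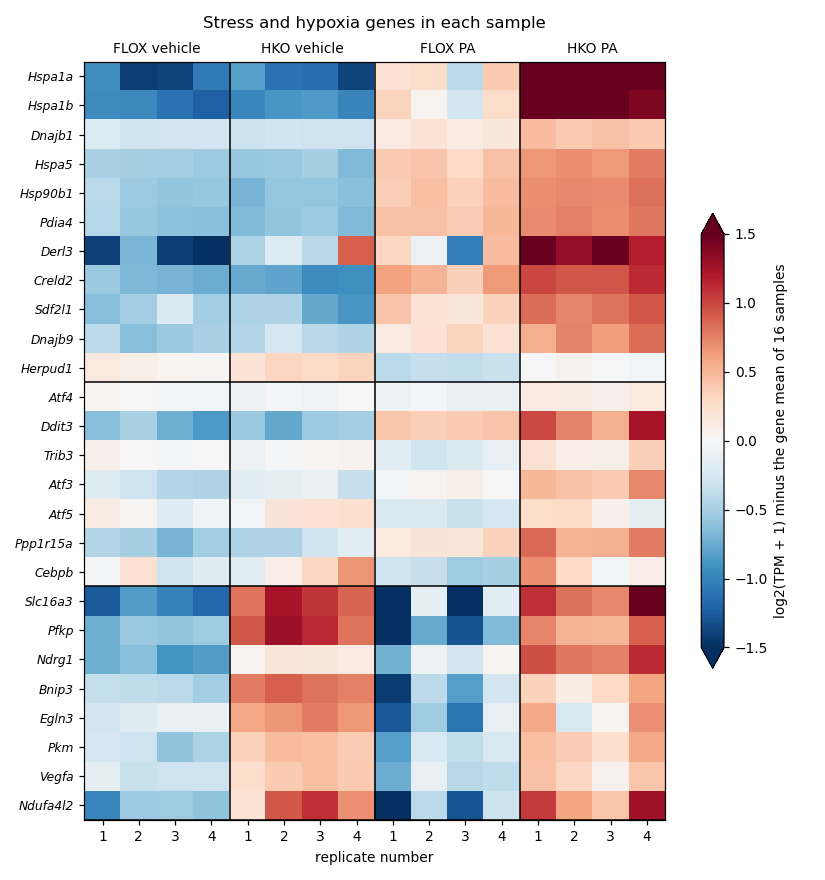
Level of 26 chaperone, stress and hypoxia genes in each of the 16 samples, as log2(TPM + 1) minus the gene's mean over all samples (colour), with replicate number below. Hspa1a and Hspa1b exceed 1.5 in most samples of HKO with palmitic acid, while Slc16a3 and Bnip3 are low in FLOX replicates 1 and 3 under palmitic acid.

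Inflammatory signalling genes were higher for 5 of 18 tested members and lower for 0. Ccl2, a chemokine that attracts monocytes, was 179, 134, 147 and 160.4 TPM in FLOX and 312, 283, 282 and 191 TPM in HKO (0.76 ± 0.12, adjusted p = 0.00041). Icam1, an adhesion molecule, was 15.7, 13.5, 11.6 and 13.2 TPM in FLOX and 23, 24.4, 22.4 and 16.6 TPM in HKO (0.63 ± 0.1, adjusted p = 0.00081). HKO replicate 4 was the lowest HKO sample for both genes and lay above all FLOX samples. Rela, a subunit of NF-κB, rose from 55.6 ± 4.36 to 67 ± 2.75 TPM. Nfkbia and Tlr2 passed the threshold as well and lost it without HKO replicate 1, which left 3 of the 18, as did a fit of the 2 groups alone; Nfkbia lost it also without FLOX replicate 4 or HKO replicate 3. Macrophage markers moved with these genes: the 14 markers summed to 160 to 173 TPM in FLOX and 201 to 240 TPM in HKO. Nearly all of the sum was Cd14 and Cd68, which hepatocytes can express and which both passed the threshold, while the other 12 were below 1 TPM in all 8 samples. The defining Kupffer cell markers were at most 0.08 TPM for Adgre1 and 0.47 TPM for Clec4f, and Timd4 was listed at 0 throughout. In bulk samples more cells of a type cannot be told apart from more RNA per cell, and the part of macrophages in the higher inflammatory genes was not tested beyond these levels. Interferon genes were higher for 2 of 27 and lower for 0, a share near that of all genes, and for 1 without FLOX replicate 1, 3 or 4 or HKO replicate 1, 3 or 4.

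Of the pathway lists, hypoxia and glycolysis held the highest share of higher members, 16 of 25, with 1 lower and a median of 0.28. Slc16a3 (ENSMUSG00000025161), the lactate exporter MCT4, lies outside the list and was named for the size of its difference; it was 0.6, 4.66, 1.03 and 4.54 TPM in FLOX and 12.3, 10, 9.24 and 16.8 TPM in HKO (2.01 ± 0.33, adjusted p = 0.000873). Bnip3, a mitophagy receptor and target of hypoxia-inducible factor, was 48, 99.3, 73.1 and 108 TPM in FLOX and 166, 141, 161 and 197 TPM in HKO (1.07 ± 0.18, adjusted p = 0.00089). FLOX replicates 1 and 3 were the lowest samples for both genes, so the FLOX group was itself spread, but no FLOX sample reached an HKO sample. Ndufa4l2, a mitochondrial protein induced in low oxygen and likewise outside the list, averaged 5.32 ± 2.61 TPM in FLOX and 19.1 ± 5.51 TPM in HKO, and Ndrg1 was 17.6 ± 3.9 and 40.2 ± 4.84 TPM. Of glycolytic enzymes, Pfkp, a phosphofructokinase, rose from 2.88 ± 1.19 to 11.7 ± 1.71 TPM and the pyruvate kinase Pkm from 53.3 ± 9.54 to 94.9 ± 8.92 TPM. Vegfa, the angiogenic factor, rose from 53.7 ± 9.77 to 88.6 ± 10.1 TPM. Hif1a itself, a factor regulated mainly as a protein, stood at 43.9 ± 8.24 and 38.4 ± 2.26 TPM (adjusted p = 0.429). Without FLOX replicate 1 Hif1a was called lower (-0.31, adjusted p = 0.0174), and the list's counts were 16 higher and 2 lower; with sample quality weights Hif1a was called too (adjusted p = 0.0393). With vehicle 19 were higher and 1 lower. ACGTG, the core of the hypoxia response element, was found in the 250-base promoters of 9 of the 15 higher genes with an entry, against 4998 of 27025 genes (18.5%), as a description of letters only. The same count for the uncalled members of this list was not made.

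Secreted plasma proteins were among the most abundant transcripts that differed. Of 27 acute phase genes 14 were higher and 1 lower (2 without FLOX replicate 3 or HKO replicate 4), against 16 and 1 with vehicle. Their median under palmitic acid was 0.28. Hpx, hemopexin, which binds free heme, was 2502, 2611, 2880 and 2725 TPM in FLOX and 4078, 4097, 4142 and 4332 TPM in HKO (0.64 ± 0.036, adjusted p = 1.17e-08). Hp, haptoglobin, which binds free haemoglobin, was 1363, 1246, 1356 and 1284 TPM in FLOX and 1948, 1906, 1959 and 1829 TPM in HKO (0.54 ± 0.032, adjusted p = 1.45e-08). All 4 HKO samples lay well above all FLOX samples for both proteins. Lbp, the lipopolysaccharide-binding protein, rose from 14.3 ± 1.81 to 26.9 ± 3.28 TPM, the fibrinogen chain Fgg from 398 ± 29.1 to 548 ± 21.9 TPM and Itih4 from 238 ± 11.4 to 333 ± 11.5 TPM. Socs3, the feedback inhibitor of interleukin 6 signalling, was 2.64 ± 0.25 and 3.99 ± 0.328 TPM. Orm3, an orosomucoid, was the lower one, at 27.9 ± 1.33 and 18.9 ± 3.25 TPM, and Crp, at 39 ± 6.18 and 42.8 ± 1.17 TPM, did not pass (adjusted p = 0.375).

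Complement and coagulation factors were higher for 18 of 36 tested members and lower for 0, against 21 and 0 with vehicle. Their median under palmitic acid was 0.21. C3, the central complement protein, was 289, 298, 303 and 289 TPM in FLOX and 537, 534, 507 and 468 TPM in HKO (0.79 ± 0.056, adjusted p = 1.24e-07), without overlap. Cfb, an activator of the alternative pathway, rose from 220.0 ± 5.06 to 288 ± 10.5 TPM. C9, which forms the membrane pore, rose from 80.5 ± 3.27 to 114 ± 1.94 TPM, Serping1, the C1 inhibitor, from 155 ± 1.92 to 209 ± 7.02 TPM, and F2, prothrombin, from 343 ± 10.7 to 399 ± 7.84 TPM. Plasma carrier proteins went both ways, with 11 of 25 higher and 5 lower. Ahsg (fetuin-A) rose from 1001 ± 42.6 to 1515 ± 49.2 TPM and Ambp from 1418 ± 14.1 to 1724 ± 27.8 TPM. Trf, transferrin, rose from 9604 ± 256 to 11540 ± 609 TPM and Selenop, the selenium carrier, from 1276 ± 12.1 to 1556 ± 74 TPM. Among the lower ones, Apoa1, the main protein of high-density lipoprotein, fell from 11670 ± 1151 to 8934 ± 340.3 TPM, and Mttp, which loads lipid onto apolipoprotein B, from 47.3 ± 4.35 to 36.2 ± 2.02 TPM. FLOX replicate 1 held the highest Apoa1 level, 13369.6 TPM, against 10829 to 11338 TPM in the other FLOX samples, all of them above the HKO maximum of 9225 TPM.

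Cytochrome P450 genes of drug metabolism were lower for 12 of 23 tested members and higher for 4, against 11 and 4 with vehicle. Their median under palmitic acid was -0.22. Cyp2e1, which oxidises ethanol and paracetamol, was 151, 172, 145 and 168 TPM in FLOX and 75.7, 70.1, 75 and 86.7 TPM in HKO (-1.04 ± 0.063, adjusted p = 2.02e-08). Cyp2a5, the mouse coumarin hydroxylase, was 51.8, 56.8, 58.4 and 51.7 TPM in FLOX and 19.3, 20.6, 20.9 and 19.8 TPM in HKO (-1.40 ± 0.055, adjusted p = 3.23e-10). The groups were separated widely for both. Cyp3a11, the main mouse CYP3A enzyme, fell from 237 ± 30.5 to 135 ± 3.62 TPM, and Cyp1a2 from 40.2 ± 1.64 to 29.1 ± 1.16 TPM. Of the CYP2C family, Cyp2c29 fell from 55 ± 2.69 to 31.9 ± 0.252 TPM, Cyp2c37 from 12.2 ± 0.469 to 6.05 ± 0.142 TPM and Cyp2c50 from 39.8 ± 2.62 to 22.9 ± 0.574 TPM; these genes are similar in sequence, and reads may have been divided among them. The higher members were Cyp2d26, Cyp2f2, Cyp3a13 and Cyp1a1. Cyp1a1, a target of the aryl hydrocarbon receptor, was 2.47, 5.37, 12.9 and 3.74 TPM in FLOX and 9.85, 12.2, 11.3 and 15.5 TPM in HKO, with FLOX replicate 3 inside the HKO range, and lost its call (adjusted p up to 0.0803) without FLOX replicate 1, FLOX replicate 4, HKO replicate 2 or HKO replicate 4.

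Phase II conjugation enzymes, which attach polar groups to drugs and hormones, were lower for 12 of 29 and higher for 1, against 11 and 1 with vehicle. Under palmitic acid the higher count was 2 without FLOX replicate 1 or HKO replicate 4, and the median was -0.14. Inmt, an indolethylamine methyltransferase, was 25.2, 25.4, 19.9 and 24.6 TPM in FLOX and 6.6, 6.31, 7.82 and 7.88 TPM in HKO (-1.60 ± 0.096, adjusted p = 1.93e-08). Ugt2b1, a glucuronosyltransferase, fell from 22.1 ± 2.34 to 14 ± 0.495 TPM and Ugt1a1, which conjugates bilirubin, from 38.1 ± 2.82 to 26.9 ± 0.983 TPM. Glutathione transferases and sulfotransferases took part, with Gstm3 at 126 ± 3.85 and 91 ± 5.4 TPM and Sult1d1 at 50.2 ± 2.13 and 33.9 ± 2.91 TPM. The higher member was Ugt2b38. Antioxidant genes controlled by NRF2 overlap with these enzymes in function: 9 of 29 were lower and 3 higher, against 10 and 0 with vehicle. Nqo1, a quinone reductase, fell from 15.1 ± 1.01 to 9.71 ± 0.716 TPM, and the peroxiredoxin Prdx6 from 425 ± 20.1 to 339.6 ± 20.5 TPM. The higher ones included Hmox1, heme oxygenase 1, which rose from 297 ± 14.9 to 372 ± 21 TPM, and Sqstm1, the autophagy receptor p62, which rose from 1079 ± 42.9 to 1292 ± 63 TPM. With median-ratio scaling, or in a fit of the 2 groups alone, 5 of the 29 were lower and 3 higher.

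**Figure D4:**
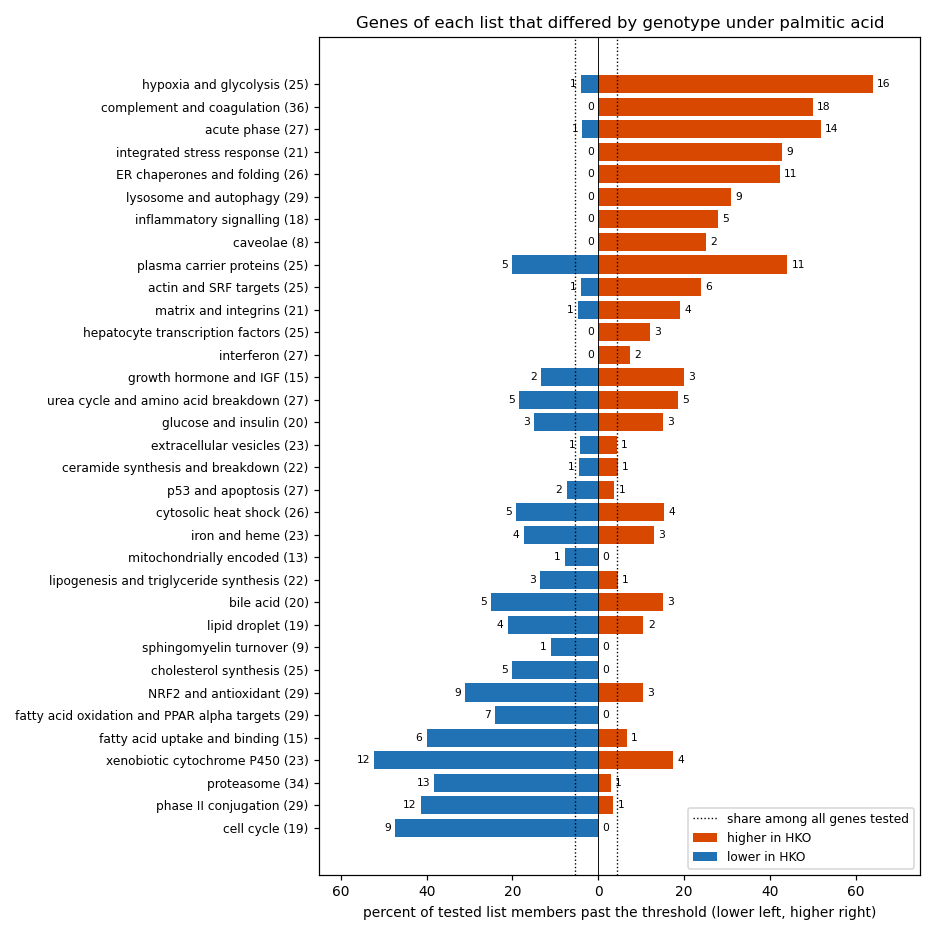
Percent of the tested members of each of 34 gene lists that were lower (blue, left) or higher (orange, right) in HKO under palmitic acid, with the number of called members at the bar and the number tested in brackets; dotted lines mark the shares among all genes tested (5.5% lower, 4.24% higher). Hypoxia and glycolysis reach 16 of 25 higher and the cell cycle list 9 of 19 lower. The lists were chosen with earlier results of these data known, so the dotted lines are a description and no test.

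Called genes of fatty acid oxidation were all lower in HKO, as were most of those of uptake. Of 29 genes of fatty acid oxidation and PPARα targets 7 were lower and 0 higher, against 9 and 0 with vehicle. Their median under palmitic acid was -0.12. Acaa1b, a peroxisomal thiolase, was 49, 50.4, 43.2 and 52.8 TPM in FLOX and 22.8, 22.6, 25.8 and 28 TPM in HKO (-0.95 ± 0.068, adjusted p = 1.53e-07), with no overlap. Of the fatty acid hydroxylases that are classic PPARα targets, Cyp4a10 fell from 17.9 ± 1.29 to 10.8 ± 0.45 TPM and Cyp4a14 from 6.51 ± 0.907 to 2.69 ± 0.184 TPM. The secreted lipase inhibitor Angptl4 fell from 319 ± 9.85 to 223 ± 11.6 TPM. Ppara, the receptor itself, stood at 13.9 ± 1.33 and 11.6 ± 2.72 TPM (adjusted p = 0.340). Among 15 genes of fatty acid uptake and binding 6 were lower and 1 higher (2 without FLOX replicate 2 or 4 or HKO replicate 2, or without FLOX replicate 1 of the vehicle group). Fabp1, the liver fatty acid binding protein, was 722, 711, 751 and 808 TPM in FLOX and 492, 432, 489 and 541 TPM in HKO (-0.62 ± 0.06, adjusted p = 4.31e-06). Fabp4, the adipocyte type, fell from 235 ± 21.7 to 151 ± 10.5 TPM, Fabp5 from 151 ± 4.59 to 122 ± 7.16 TPM and Acsl5, an acyl-CoA synthetase, from 291 ± 28.9 to 229.9 ± 16.4 TPM. The higher member, Slc27a5, also activates bile acids.

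Lipid droplet genes were lower for 4 of 19 and higher for 2. Whether Plin2, the main droplet coat of these cells, passed the threshold depended on FLOX replicate 1: it averaged 2626 ± 224 TPM in FLOX and 2356 ± 131 TPM in HKO (-0.15, adjusted p = 0.110), and was called lower without that sample (-0.22, adjusted p = 0.00624) or with sample quality weights (-0.21, adjusted p = 0.00512). Without FLOX replicate 1, 6 of the 19 were lower. Cidec, which fuses droplets, fell from 146 ± 4.67 to 114 ± 3.92 TPM and Fitm1 from 3.48 ± 0.428 to 1.47 ± 0.267 TPM, while Cideb, which acts in lipoprotein loading, rose from 28.2 ± 2.83 to 38.3 ± 2.21 TPM and Hsd17b13, a droplet protein linked to fatty liver, from 127 ± 10 to 185 ± 6.2 TPM. Of 22 genes of lipogenesis and triglyceride synthesis 3 were lower and 1 higher. Scd1, the main liver desaturase, was 289, 389, 356 and 378 TPM in FLOX and 238, 242, 233 and 215 TPM in HKO, with FLOX replicate 1 nearest to HKO (-0.59 ± 0.082, adjusted p = 0.000166). Scd2, the desaturase of other tissues, was 1.35 ± 0.127 and 2.44 ± 0.509 TPM, and Fasn, the fatty acid synthase, stood at 58.6 ± 5.47 and 53.1 ± 3.4 TPM (adjusted p = 0.245). Cholesterol synthesis genes were lower for 5 of 25 and higher for 0, with a median of -0.14, and fell to 3 without FLOX replicate 3, HKO replicate 1 or HKO replicate 4. Pmvk, the phosphomevalonate kinase, fell from 65.9 ± 7.34 to 53.3 ± 1.08 TPM. With vehicle 1 of the 25 was higher and 1 lower.

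Cell cycle genes, many of them of DNA replication, were called lower for 9 of 19 members tested and higher for 0, with a median of -0.31. Mcm6, a subunit of the replicative helicase, was 63.7, 61.9, 63.8 and 64 TPM in FLOX and 49.8, 46.9, 53.6 and 37.9 TPM in HKO (-0.43 ± 0.072, adjusted p = 0.000939). Rrm2, of the enzyme that makes deoxynucleotides, was 22.6, 25.1, 23.9 and 24.5 TPM in FLOX and 19.3, 15.6, 16.5 and 16.9 TPM in HKO (-0.47 ± 0.067, adjusted p = 0.000196). No FLOX sample overlapped with HKO in either gene. Ccnd1, cyclin D1, was 1.67 ± 0.192 and 0.9 ± 0.255 TPM. With vehicle 11 of the 19 were lower.

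Proteasome genes were lower for 13 of 34 and higher for 1, but this count depended on how samples were scaled. Quantile normalization gave 8 lower members, median-ratio scaling 3, and a fit corrected for the length and GC content of transcripts 6. Left-out samples moved it too, to 8 without FLOX replicate 1, 7 without FLOX replicate 4 and 8 without HKO replicate 2. Psma6 fell from 169.8 ± 3.73 to 145 ± 3.32 TPM and Psma7 from 358 ± 16 to 309 ± 6.86 TPM. Both kept their call in each of these settings. The vehicle contrast called 21 of the 34 lower and 0 higher.

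Further lists were mixed. Igfbp1, an insulin-repressed binding protein of the growth factor IGF, was 259, 264, 259 and 251 TPM in FLOX and 478, 499, 473 and 493 TPM in HKO (0.91 ± 0.033, adjusted p = 2.35e-10). Igfbp2, another such protein, went the other way, at 140.1, 129.8, 120.4 and 126 TPM in FLOX and 61.7, 58.7, 58.3 and 64.8 TPM in HKO (-1.07 ± 0.051, adjusted p = 1.71e-09). The 2 genotypes were fully separated for both. Of 29 lysosome and autophagy genes 9 were higher and 0 lower, which fell to 5 without FLOX replicate 2, HKO replicate 2 or HKO replicate 4 and to 4 without FLOX replicate 3 or HKO replicate 1 (3 in a fit of the 2 groups alone); the protease Ctsl rose from 1265 ± 101 to 1501 ± 31.8 TPM. Of 23 iron and heme genes 3 were higher and 4 lower, with the ferritin heavy chain Fth1 falling from 14620 ± 189 to 12630 ± 445 TPM and Blvrb, a biliverdin reductase, from 269 ± 2.64 to 197 ± 3.23 TPM. Of 20 bile acid genes 3 were higher and 5 lower, among them the bile acid receptor Nr1h4 at 51.9 ± 2.99 and 38.3 ± 3.67 TPM; the lower count was 3 without FLOX replicate 2 or HKO replicate 4 and 2 without FLOX replicate 3. Of 25 actin and serum response factor targets 6 were higher and 1 lower, with Tagln, an actin-binding protein, at 2.48 ± 0.583 and 6.5 ± 1.87 TPM and Fos at 8.04 ± 1.04 and 12.2 ± 1.42 TPM. Of 8 caveola genes 2 were higher (1 without FLOX replicate 3, FLOX replicate 4 or HKO replicate 1), Cavin1 among them at 4.71 ± 0.262 and 9.31 ± 0.562 TPM. The tetraspanin Cd9, a component of extracellular vesicles, rose from 78.1 ± 3.66 to 92.8 ± 5.32 TPM.

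Spp1, osteopontin, and Lgals3, galectin-3, are secreted proteins that rise in injured liver. Spp1 was 173, 155, 198 and 156 TPM in FLOX and 333, 331, 346 and 296 TPM in HKO (0.94 ± 0.068, adjusted p = 1.68e-07), and Lgals3 rose from 116 ± 7.03 to 204 ± 15.5 TPM. Every HKO sample exceeded every FLOX sample. Spp1 is also a cholangiocyte marker, and the 11 cholangiocyte markers summed to 467 to 504 TPM in FLOX and 631 to 680 TPM in HKO, mostly Spp1 and Cldn4. Over all 8 samples Krt19 was 4.07 to 6.21 TPM, with overlapping genotypes, Epcam was 0.61 to 0.8 TPM, and Cftr was listed at 0; the part of cholangiocytes was not tested beyond these levels.

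The same genotype contrast with vehicle sets these differences beside those without the fatty acid, and it shares no sample with the contrast under palmitic acid. The replicate numbers recur under both treatments, so the contrasts may still share mice or cell isolations. Their overlap is therefore not shown to be an independent replication. With vehicle 1384 genes (11.7%) were called, 487 (4.11%) higher and 897 (7.56%) lower. In both contrasts 292 genes were higher, which is 58.1% of those higher under palmitic acid and 60% of those higher with vehicle, and 370 were lower, which is 56.7% and 41.2%. Across the 11858 genes, as a description only, the log2 differences of the contrasts correlated at r = 0.424 (Spearman rho = 0.478). Single genes from several groups stood at close values in both contrasts. Hpx stood at 0.63 with vehicle and 0.64 under palmitic acid, Cyp3a11 at -0.90 and -0.80, and Slc16a3 at 2.07 and 2.01. A total of 3 genes were called in opposite directions, Gckr and C4a (lower under palmitic acid, higher with vehicle) and Ifrd1 (the reverse); C4a was named after its values were seen. C4a lost its call under palmitic acid without FLOX replicate 1, 2 or 3 or HKO replicate 1, 2 or 4 (limma adjusted p up to 0.0961), and Ifrd1 without FLOX replicate 4 (adjusted p = 0.0522). Gckr kept its call with each sample left out (adjusted p up to 0.0494). In a fit of the 2 groups alone, Gckr and Ifrd1 lost theirs.

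The direct test of the difference between the contrasts, the interaction, called 23 genes (0.194%), of which 18 were more positive under palmitic acid (0.152%) and 5 more negative (0.0422%). Its unadjusted limma p was under 0.05 for 893 of 11858 genes, and chance alone gives such a p in about 1 in 20 genes. The count of called genes was 8 to 13 without FLOX replicate 3 or 4 or HKO replicate 1, 2 or 3 of the palmitic acid groups, or without any vehicle sample other than HKO replicate 4, and 9 with median-ratio scaling. Of the 23, 20 were also called under palmitic acid, and 8 kept their call when each of the 16 samples was left out in turn. These 8 were Hspa1a, Hspa1b, Hspa5, Hsp90b1, Creld2, Igfbp1, Cyp2a5 and Sult1e1. Of them Hspa5 and Igfbp1 lost the call with median-ratio scaling (adjusted p = 0.103 and 0.0526), Igfbp1 with quantile normalization (0.056), and Hsp90b1, Hspa5 and Igfbp1 without the mean-variance trend (0.0801, 0.0831 and 0.0831). Hspa1a stood at 0.08 with vehicle and 2.07 under palmitic acid, an interaction of 1.99 (adjusted p = 0.0115), and Hspa1b at 0.15 and 1.80, an interaction of 1.65 (adjusted p = 0.011). With vehicle Hspa1a averaged 1.92 ± 0.489 TPM in FLOX and 2.09 ± 0.503 TPM in HKO. Every FLOX sample with palmitic acid lay above both of these means, and every HKO sample with palmitic acid lay higher still. The chaperones Hspa5, Hsp90b1 and Creld2 stood at -0.062, -0.095 and -0.19 with vehicle, none of them called, and at 0.30, 0.33 and 0.47 under palmitic acid, with interactions of 0.36, 0.43 and 0.66 (adjusted p = 0.015, 0.015 and 0.0115). Igfbp1 was higher under both treatments and more so under palmitic acid, by 0.33 (adjusted p = 0.0115). Cyp2a5 was lower under both and less so under palmitic acid, at -1.93 with vehicle and -1.40, an interaction of 0.53 (adjusted p = 0.0115). Sult1e1, which inactivates oestrogens, stood at -0.078 with vehicle, not called, and at -0.77 under palmitic acid, where it fell from 20.7 ± 0.965 to 11.7 ± 1.22 TPM, an interaction of -0.70 (adjusted p = 0.0122).

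The other 15 interaction calls were lost without at least 1 sample. Among them were the stress genes Atf4, Dnajb1, Pdia4, Hmox1 and Hspa8 on the positive side, which kept the call in 2, 1, 0, 8 and 4 of the 16 fits with a sample left out, and Col12a1, Fah, Gckr and Tmem37 on the negative side, which kept it in 5, 3, 3 and 2. Their highest adjusted p in those fits was 0.135, for Atf4 and Pdia4. Of the chaperone lists, 4 members each of the endoplasmic reticulum and the cytosolic list were among the 23, and 1 of the integrated stress response list.

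**Figure D5:**
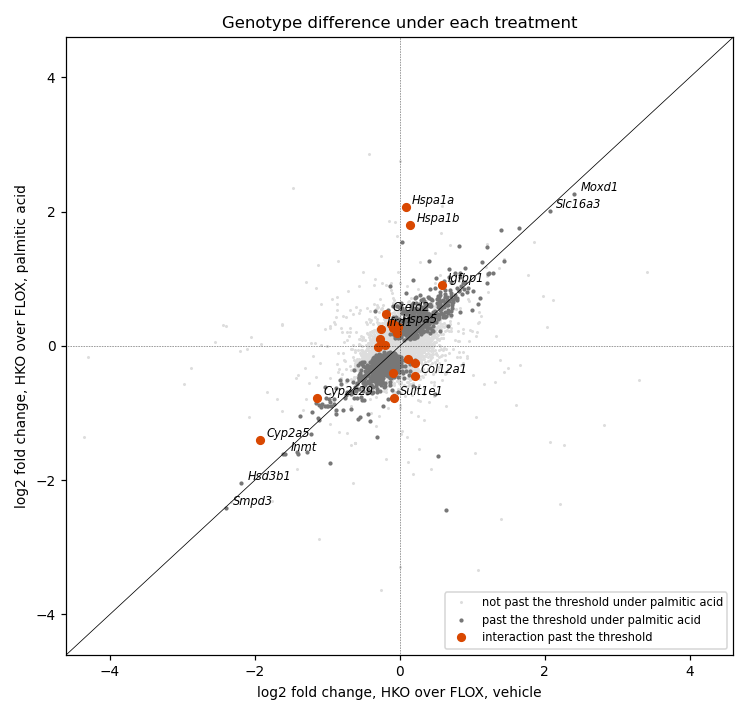
Log2 difference between HKO and FLOX with vehicle (horizontal) and under palmitic acid (vertical) for each gene tested; dark grey points were called under palmitic acid, orange points are the 23 genes called in the interaction, and the line marks equal differences. Smpd3, Moxd1 and Slc16a3 lie near the line, whereas Hspa1a and Hspa1b lie near 0 with vehicle and near 2 under palmitic acid.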

How the data were processed

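RNA of primary mouse hepatocytes was sequenced with a stranded total RNA kit, per the labels' protocols, in 16 samples of 4 groups of 4. The authors deposited TPM per Ensembl gene; RSEM 1.3.3 is named in the submitters' processing notes, and its aligner and annotation are not given in the labels, notes or file. Those notes name a human build, but the gene IDs are of mouse; symbols matched 52083 of 55416 IDs. No pair of samples held identical values.

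Values were taken as log2(TPM + 1), for genes of at least 1 TPM in at least 4 samples, and all 16 samples were fitted in limma 3.58.1 (R 4.3.3) with a mean per group, a mean-variance trend and Benjamini-Hochberg adjustment over 11858 genes (threshold 0.05). The fit was tested on simulated data. The members and gene lists were chosen with earlier results of these data known. Named genes were Smpd3, genes among the 12 largest called differences per direction without overlap, up to 6 called members per list and direction, the first 3 members of each list, and up to 8 interaction genes per direction; C4a was named after its values were seen, and cell type markers as a check of the label; some genes that the rule names are not reported here. Alternatives were another pseudocount (0.1), filter (none or 5 TPM), scaling, trend, sample set, replicate block, sample weights and each sample left out; one with values corrected for the length and GC content of transcripts was added after the data were seen.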

Additional observations from a re-analysis of the deposited data

Results flagged for a closer look

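Within each group of 4 palmitic acid samples, the named genes were searched for a sample set far apart from the others by Dixon's test, which chance alone flags in about 1 in 20 groups. The search covered 127 called genes and some uncalled ones in both genotypes. At that rate chance alone would give at least as many flags as were found, so none of them is read as a result. FLOX replicate 1 was the sample set apart for 3 genes: it held 55.12 TPM of Cd68, 1114.3 TPM of Ctsl and 191.64 TPM of Cyp3a11, each the lowest of its group. In the other FLOX samples, Mcm6 was low in replicate 2 (61.86 TPM), Inmt was low in replicate 3 (19.87 TPM) and Prelid2 was high in replicate 4 (10.81 TPM). In HKO, replicate 1 stood apart for AI662270 (0.14 TPM), Cyp2f2 (133.59 TPM) and Itih4 (350.31 TPM), replicate 3 for Cyp2c29 (31.48 TPM), and replicate 4 for Cdkn1a (202.95 TPM).

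The interaction term, the genotype difference under palmitic acid minus that with vehicle, passed the threshold for 19 of the genes named. Only the 8 listed above kept the call with each of the 16 samples left out. Ifrd1 kept it in 4 and Cyp2c29 in 5 of those 16 fits. Positive values, a difference further up under palmitic acid, were 1.99 for Hspa1a, 1.65 for Hspa1b, 0.66 for Creld2, 0.53 for Cyp2a5, 0.52 for Ifrd1, 0.44 for Hmox1, 0.43 for Hsp90b1, 0.37 for Cyp2c29, 0.36 for Hspa5, 0.36 for Pdia4, 0.33 for Igfbp1, 0.31 for Dnajb1, 0.23 for Hspa8 and 0.23 for Atf4. Negative values were -0.70 for Sult1e1, -0.66 for Col12a1, -0.46 for Gckr, -0.32 for Tmem37 and -0.30 for Fah.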

How the results depend on the processing

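The 1155 genes called under palmitic acid became 669 (319 higher, 350 lower) when only the 2 groups compared were fitted, and ranged from 866 to 1202 with 1 sample left out in turn. The log2 difference of Smpd3 passed the threshold in all 28 alternatives. The 23 interaction calls were 9 with median-ratio scaling, 5 without the mean-variance trend, 40 with sample quality weights, and 8 to 24 with 1 sample left out. Same-numbered FLOX and HKO palmitic acid samples correlated weakly in their deviations from group means (0.112, 0.0887, 0.0148 and -0.0537 for replicates 1 to 4). The highest correlation of each FLOX sample with an HKO sample of another number was 0.0218, -0.00867, 0.104 and 0.0402. Weak correlations cannot settle whether the number pairs samples. Within genotype, same-numbered samples of the 2 treatments had a consensus correlation of -0.149. A replicate block by number gave 1011 calls under palmitic acid and 8 in the interaction (Hspa5 and Hsp90b1 lost theirs, adjusted p = 0.0729 and 0.0644). A replicate block within genotype gave 1146 and 8. Of the 127 named genes past the threshold under palmitic acid, 119 kept it with each sample left out and 8 lost it at least once; none of the named genes changed direction, and Plin2 and Hif1a gained a call without FLOX replicate 1 or with sample quality weights. Of the 8 interaction calls kept with each sample left out, 5 held in all 27 alternatives. The cause of these shifts was not tested. TPM gives no depth, so no limit for low transcripts could be set.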
